A study of Oryza sativa with 36 samples.

Results

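Endosperm was compared with embryo in rice seeds (Oryza sativa) after 8 h of imbibition. The comparison held 6 arrays of the 36 in the series. These were the 3 endosperm arrays (replicates 1, 2 and 3) and the 3 embryo arrays (replicates 1, 4 and 5) that the labels place at 8 h, and all 57194 rice probe sets of the Affymetrix rice array were compared on them. Both groups come from seeds soaked in aerated sterile distilled water, kept dark at 30 °C, and the labels give no other treatment. The series holds both tissues at 0, 4, 8, 12, 16 and 24 h with 3 arrays each, and its design asks how the tissues differ as germination proceeds. The labels name the cultivar Nipponbare on most samples, but not on embryo replicate 1 at 8 h. The tissue label reads embryo, whereas the growth protocol of the same samples speaks of the embryonic axis. Nothing in the labels says that replicates came from separately grown seed lots. The p-values therefore reflect array-to-array spread, in part between harvest days, that may be technical. At 8 h the tissues share a harvest day for replicate 1 only. For the other arrays tissue and harvest day cannot be told apart.

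The endosperm of a mature rice grain is a dead, starch-filled store enclosed by a living aleurone layer, and the embryo beside it holds the shoot and root meristems. Glutelins, prolamins and starch laid down during grain filling are broken down after germination by hydrolases, and the released sugars and amino acids feed the growing axis. Dry seeds also carry a store of messenger RNA from maturation, so a transcript measured early in imbibition may be old or newly made.

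The measure was the log2 GCRMA signal as deposited, a background-corrected and normalised probe set intensity on a log2 scale, and a difference is always the endosperm mean minus the embryo mean. Replicates correlated at r of 0.995 to 0.997 among endosperm arrays and 0.997 to 0.998 among embryo arrays over all probe sets, against 0.919 to 0.934 between the tissues. The distribution of values differed by tissue. The 75th percentile was 4.44 to 4.51 on the endosperm arrays and 5.70 to 5.75 on the embryo arrays, so the scale of one tissue against the other is not settled by the files, and calls are also given after quantile normalization of the 6 arrays, which forces 1 common distribution on them. The hybridisation spike-ins averaged 9.75 ± 0.33 in endosperm and 9.82 ± 0.05 in embryo (SD, n = 3 each). Ribosomal RNA control probe sets averaged 9.17 ± 0.34 in endosperm and 10.72 ± 0.27 in embryo. The 3′ probe sets of actin, cyclophilin and GAPDH exceeded the 5′ ones by 2.89 ± 0.21 in endosperm and 1.66 ± 0.13 in embryo, and the part of this difference in RNA quality in the results below was not tested. In bulk tissue, fewer cells of a type and less RNA per cell cannot be told apart.

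The tissue labels were checked against marker genes. Of 8 starchy endosperm markers, 7 were higher in endosperm on both scales, and their summed level (log2 of the sum of the signals on the linear scale) was 16.23 to 16.35 on the endosperm arrays and 10.16 to 10.80 on the embryo arrays. The remaining one, the glutelin gene GluB4, was under the level of the reporter probe sets in both tissues. Of 4 markers of the embryo and its meristem, OSH1, OSH71 and WOX9 were lower in endosperm, and VP1, which is active in both embryo and aleurone, had 9.77, 9.78 and 9.82 in endosperm and 10.13, 10.13 and 10.02 in embryo. Among 4 aleurone genes, the alpha-amylase gene AMY3A and the regulator GAMYB were higher in endosperm, while R1C-Prx and AMY1A were not called. Both genes listed as pericarp and seed coat markers, chalcone synthase CHS1 and chalcone isomerase CHI, were lower in endosperm, with summed levels of 6.14 to 6.42 there and 10.10 to 10.38 in embryo. The embryo mean of CHS1 was 6.93 at 0 h and 9.83 at 8 h. Only 2 of its 5 probe sets were called so, and their mean difference over the 5 was -1.362. Whether these 2 genes mark coat tissue in these samples was not tested. The part of the starchy endosperm marker signal seen on the embryo arrays in the other values was not tested.

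Far more genes were lower than higher in endosperm on the deposited scale, and the counts in the 2 directions were close after quantile normalization. Calls required a limma p-value below 0.05 after Benjamini-Hochberg adjustment over all probe sets and a log2 difference of at least 1 in size. With each gene taken as its brightest probe set, 9384 of 17905 genes were called (52.4%). Of these 728 were higher in endosperm (4.07%) and 8656 lower (48.3%). After quantile normalization 4302 were called (24.0%), 2041 higher (11.4%) and 2261 lower (12.6%). All of those 2261 were also lower on the deposited scale, and 725 of the 728 higher genes stayed higher. Centring each array on its 75th percentile instead gave 7507 calls (41.9%), 5698 higher (31.8%) and 1809 lower (10.1%). Regardless of any threshold, all endosperm arrays lay above all embryo arrays for 2976 genes as deposited (16.6%) and below them for 12978 (72.5%). Counted over probe sets, 14733 were called as deposited (25.8%) and 7039 after quantile normalization (12.3%). Of these 1268 were higher (2.22%) and 13465 lower (23.5%) as deposited, against 3353 higher (5.86%) and 3686 lower (6.44%) after quantile normalization. With 75th percentile centring 38798 probe sets were called (67.8%), 35996 higher (62.9%) and 2802 lower (4.90%). The median gene differed by -0.95 as deposited and by -0.02 after quantile normalization. The 725 genes higher and 2261 lower on both scales, 4.05% and 12.6% of all genes, are those called the same way as deposited and after quantile normalization, and 126 and 386 of them have a gene name (5.15% and 15.8% of the 2446 named genes). These shares of all genes are the ones to set beside each list's counts below, also where they are not repeated.

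**Figure D1:**
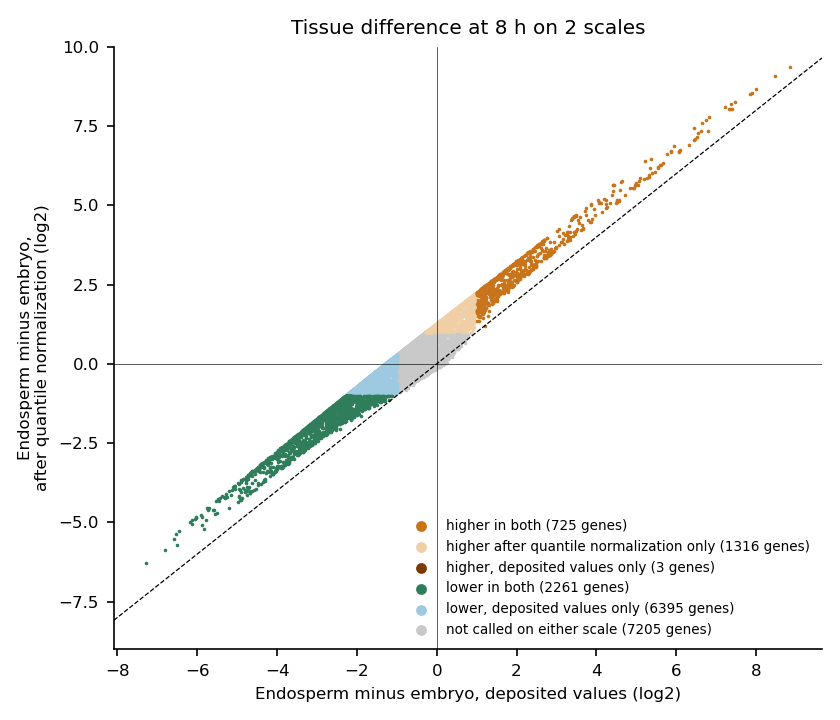
Difference between endosperm and embryo at 8 h for each of 17905 genes, as deposited (x axis) and after quantile normalization of the 6 arrays (y axis), both in log2 units. Most points lie above the dashed line of equal values, 725 genes were called higher and 2261 lower on both scales, and 6395 were called lower in the deposited values only.

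The order of the genes depended little on the scale at its ends. Of the 100 genes with the largest positive difference, 94 were shared between the rankings on the deposited and the quantile-normalised values, and 88 of the 100 with the largest negative difference were shared. Only 24 of the top 100 in each direction after quantile normalization have a gene name, so the genes described here are a minority of those that differ most. Low signals lie on a floor. The 95th percentile of the array's 64 reporter probe sets was 3.21 in endosperm and 3.43 in embryo. Where a gene's mean lay under it in a single tissue, a lower bound of the difference against that floor is also given. Each bound, written as at least, holds on the deposited scale only. After quantile normalization a difference can be smaller than its bound, as for ERS2 at -0.93, against a bound of 1.816. Bounds not repeated below were, for genes under the embryo floor, 3.676 (MT1B), 2.015 (CESA4), 2.006 (CPS2), 1.359 (PSAH) and 0.936 (KSL7). For genes under the endosperm floor they were 3.508 (MCM5), 3.505 (IAA12), 3.329 (MCM4), 2.659 (KIN5A) and 1.816 (ERS2). Of the 8656 lower genes 1081 were under the floor in endosperm, and of the 728 higher genes 275 were under it in embryo. Of the 164 genes described, 35 have more than 1 probe set, and in 24 of these not all probe sets were called alike. Averaging a gene's probe sets in place of taking the brightest shrank 22 of the 164 differences by more than 1.5 times. Among them were RAG1, GLUA2, PP2C66, IAA31, Sbe1, SSII-3, CYCD5-2, TUBB1, SWEET1a and CHS1. Others were CM-LOX2, Dip1, HSP21.9, NIA1, OC-I, gid1, CKX11, PSAG, ETR2, ITPK3, KSL7 and ACT7.

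Among genes with a name, those of storage proteins stood furthest above embryo, and GLUA3, the first of them, was in place 8 of all genes as deposited and 7 after quantile normalization. The glutelin gene GLUA3 (NCBI Gene 4333164) had 12.32, 12.83 and 12.39 in endosperm, against 5.79, 4.44 and 5.17 in embryo. All 3 endosperm arrays were close together, and the embryo arrays were far below them and more scattered. The difference was 7.38 ± 0.39 (SE, adjusted p = 4.58e-15), and 8.20 after quantile normalization. The seed allergen genes RAG1 and RA5, whose products belong to the alpha-amylase and trypsin inhibitor family, differed by 7.34 and 7.33. The glutelin genes GLUD1, GLUA1, GLUA2 and GluB5 differed by 6.62, 6.55, 6.10 and 5.40, and the prolamin gene PROLM25 by 5.62. PROLM25 had 14.14, 14.18 and 14.15 in endosperm, against 8.91, 8.32 and 8.38 in embryo. In all, 9 of 10 storage protein and allergen genes were higher in endosperm on both scales (90.0%, against 4.05% of all genes). GluB4 was not called, and the median difference was 6.33 for the list and -0.95 for all genes. Several of these probe sets (GLUA1, GLUA2, RA5 and PROLM25) carry the suffix that Affymetrix gives to probes shared with related transcripts, so signals within these families may be mixed.

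**Figure D2:**
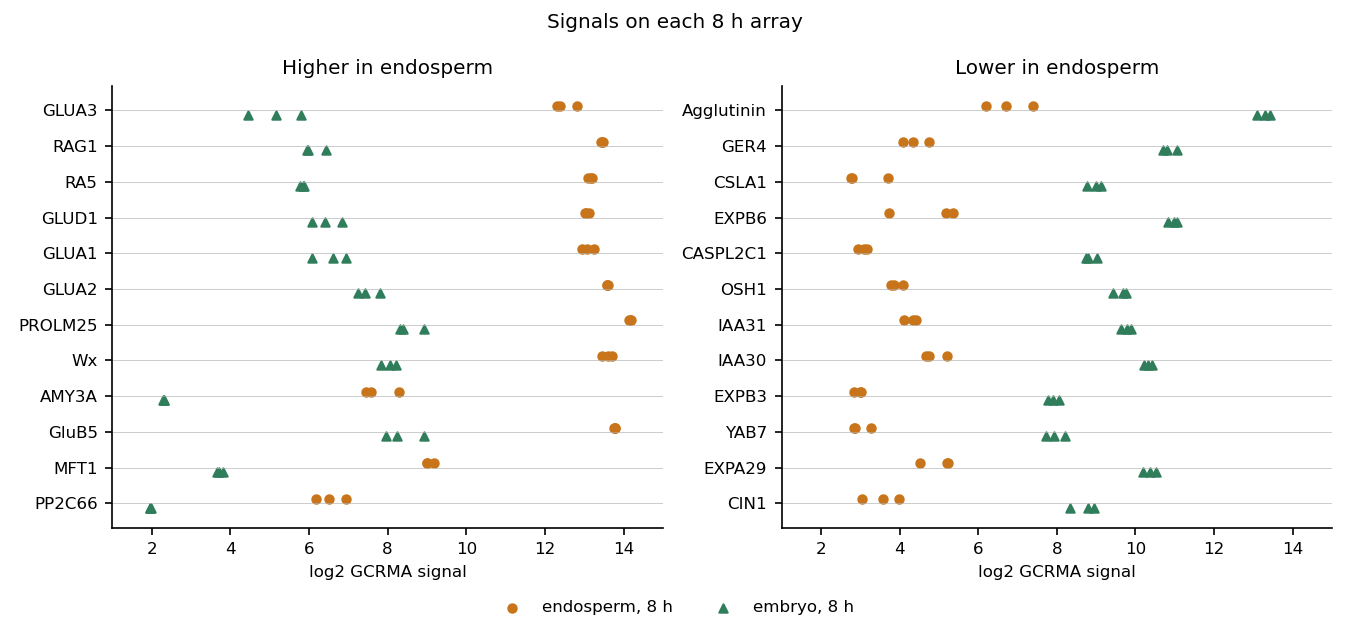
Log2 GCRMA signals on each of the 6 arrays at 8 h for the 12 named genes with the largest differences in each direction (circles, endosperm; triangles, embryo; 3 arrays each). No endosperm array overlaps an embryo array for any of the 24 genes, which the choice of genes required.

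Genes of starch synthesis divided by isoform. Wx (NCBI Gene 4340018), which encodes the granule-bound starch synthase that makes amylose, had 13.46, 13.60 and 13.70 in endosperm, against 8.21, 8.06 and 7.83 in embryo, a difference of 5.55 ± 0.53 (adjusted p = 4.66e-10). The branching enzyme gene Sbe1 differed by 4.07 ± 0.17 by its brightest probe set. Of its 8 probe sets 4 were called so, and the mean difference over the 8 was 2.376. The soluble synthase gene SSII-3 had 6.84, 7.05 and 6.97 in endosperm and 3.15, 3.15 and 3.17 in embryo, the last under the floor. By this probe set it was at least 3.52 log2 units higher. Only 1 of the 2 probe sets of SSII-3 was called so, and their mean difference was 1.854. SSII-1 went the other way, with 4.30, 4.17 and 4.08 in endosperm and 6.08, 6.34 and 6.39 in embryo, a difference of -2.09 as deposited that shrank to -0.85 and was not called after quantile normalization. Of 8 starch synthesis genes 4 were higher on both scales (50.0%, against 4.05% of all genes), 2 were lower as deposited and 1 of these stayed lower.

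Of 9 starch breakdown genes 1 was higher (11.1%, against 4.07% of all genes) and 1 lower as deposited (11.1%, against 48.3%). After quantile normalization 3 were higher (33.3%, against 11.4% of all genes) and none lower. The higher one on both scales was the alpha-amylase gene AMY3A, which had 7.59, 7.45 and 8.29 in endosperm, whereas the embryo arrays read 2.32, 2.29 and 2.30, under the floor, a difference of 5.48 ± 0.31 (adjusted p = 1.57e-14) and at least 4.35. The lower one was the plastid enzyme gene DPE1, whose product transfers glucan units between maltodextrins, with a difference of -1.65 as deposited and -0.40 after quantile normalization. Without endosperm replicate 2 or 3, 2 genes of the list were lower.

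Other genes high in endosperm were spread over several functions. MFT1, a member of the MOTHER OF FT family that regulates germination in Arabidopsis, had 8.99, 9.17 and 9.01 in endosperm, against 3.70, 3.65 and 3.82 in embryo, a difference of 5.33 ± 0.30. PP2C66, a protein phosphatase 2C gene, had 6.18, 6.94 and 6.51 in endosperm and 1.96, 1.96 and 1.97 in embryo, at least 3.11 higher against the floor, although only 1 of its 3 probe sets was called in that direction. RASI, an inhibitor of alpha-amylase and subtilisin, differed by 4.41 ± 0.36. CPK23, a calcium-dependent protein kinase gene annotated also as spk, had 12.32, 12.48 and 12.13 in endosperm and 7.90, 7.86 and 8.01 in embryo, a difference of 4.39 ± 0.18. The groups of arrays were apart for each of these genes. The sugar transporter gene SWEET1b was also higher, by 4.05 ± 0.42, with the endosperm arrays at 8.97, 8.50 and 9.80 and the embryo arrays at 5.05, 5.43 and 4.64.

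Among 7 genes of oil breakdown and oil bodies 2 were higher in endosperm on both scales (28.6%, against 4.05% of all genes) and 1 was lower. ICL, the isocitrate lyase that lets seeds turn fat into sugar, had 12.19, 11.90 and 12.48 in endosperm and 10.15, 9.98 and 9.78 in embryo, a difference of 2.22 ± 0.16. PXG, a peroxygenase of the caleosin family, differed by 3.38 ± 0.33. PEX11-4, a peroxisome division gene, went the other way, with a difference of -3.31 and at least 3.13 log2 units against the floor. The tonoplast aquaporin gene TIP3-1, typical of protein storage vacuoles, had 13.59, 13.67 and 13.64 in endosperm and 11.15, 10.33 and 11.53 in embryo. NFYB1, a transcription factor of the developing endosperm, had 5.50, 5.33 and 5.56 in endosperm and 3.26, 2.38 and 2.42 in embryo, and was at least 2.03 higher. The metallothionein gene MT1B had 7.02, 7.09 and 7.21 in endosperm and 2.92, 3.29 and 3.25 in embryo, while none of the other 6 metallothionein genes was called as deposited.

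On the embryo side, the largest differences among named genes belonged to a lectin, a germin-like protein, cell wall genes and developmental regulators. The gene named Agglutinin in the annotation, in place 5 of all genes as deposited and 3 after quantile normalization, had 7.40, 6.71 and 6.21 in endosperm, against 13.09, 13.31 and 13.43 in embryo, a difference of -6.50 ± 0.40 (adjusted p = 7.70e-14) that was -5.71 after quantile normalization. GER4, a germin-like protein gene, had 4.75, 4.09 and 4.35 in endosperm and 11.05, 10.81 and 10.71 in embryo. CASPL2C1, which encodes a CASP-like membrane protein, lay under the floor in endosperm (3.11, 2.95 and 3.18) and at 8.74, 9.03 and 8.79 in embryo. It was at least 5.64 lower as deposited, and its difference after quantile normalization was -4.94. For each of these genes all 3 endosperm arrays lay below all 3 embryo arrays.

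Most listed regulators of the shoot meristem and of embryo organs were lower in endosperm as deposited. OSH1 (NCBI Gene 4333973), the KNOX homeobox gene that marks the shoot meristem, had 4.10, 3.85 and 3.78 in endosperm, against 9.68, 9.76 and 9.42 in embryo, a difference of -5.71 ± 0.25 (adjusted p = 7.20e-17) and -4.54 after quantile normalization. Its relatives OSH71 and OSH6 differed by -4.96 and -4.70. YAB7, a YABBY family gene, was under the floor in endosperm and at 7.72, 8.21 and 7.92 in embryo, at least 4.74 lower. Of 16 embryo and meristem regulators 10 were lower as deposited (62.5%, against 48.3% of all genes) and none was higher. After quantile normalization 8 were lower (50.0%, against 12.6% of all genes) and none was higher. Of the 16 genes 4 were under the floor in endosperm alone and 5 in both tissues. The list had a median of -1.93, against -0.95 for all genes. The AP2 factor gene RSR1, known in rice as a repressor of starch synthesis genes, was listed with endosperm regulators but was lower in endosperm, at 5.37, 4.84 and 5.01, against 9.32, 9.23 and 8.87 in embryo.

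Of 29 expansin genes 17 were lower in endosperm as deposited (58.6%, against 48.3% of all genes) and 15 after quantile normalization (51.7%, against 12.6% of all genes), and none was higher. Expansins are wall proteins that let cells elongate. EXPB6 had 5.37, 3.74 and 5.19 in endosperm, against 10.97, 11.06 and 10.83 in embryo. EXPB3 was under the floor in endosperm (3.02, 2.83 and 2.99) and had 8.05, 7.78 and 7.90 in embryo, at least 4.70 lower. EXPA29 differed by -5.37 ± 0.21 (adjusted p = 8.20e-18). Another 11 of the 29 were under the floor in both tissues, where no difference can be read.

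Of 29 cellulose and glucan synthase genes 15 were lower as deposited (51.7%, against 48.3% of all genes), 10 of them also after quantile normalization, and 2 were higher. CSLA1, of the mannan synthase family, averaged 3.08 ± 0.54 in endosperm and 8.96 ± 0.18 in embryo (SD, n = 3 each), at least 5.75 lower. CSLC3, of the family that makes the xyloglucan backbone, read 2.56 on each endosperm array and 6.76, 6.66 and 6.34 in embryo, at least 3.37 lower. CESA4, a cellulose synthase of secondary walls, was higher in endosperm, at 5.37, 5.58 and 5.38, against 3.16, 2.97 and 2.96 in embryo. Among 25 aquaporin genes 10 were lower as deposited (40.0%, against 48.3% of all genes) and 6 after quantile normalization, and 2 were higher as deposited and 4 after quantile normalization. NIP1-1 was at least 3.80 lower, and the plasma membrane water channel genes PIP1-3 and PIP2-4 differed by -4.13 and -3.88.

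DNA replication genes were lower in endosperm almost throughout on the deposited scale. Of 30 such genes 26 were lower (86.7%, against 48.3% of all genes) and none was higher. After quantile normalization 13 stayed lower (43.3%, against 12.6% of all genes) and again none was higher. The minichromosome maintenance genes, whose products form the replicative helicase, were at or near the floor in endosperm: MCM2 had 3.97, 3.12 and 3.63 there, against 7.73, 7.64 and 7.31 in embryo. MCM4 and MCM5 differed by -3.55 and -3.51. Of the 30 genes 11 were under the floor in endosperm alone and 2 in both tissues. Among 25 cyclins and division kinases 12 were lower as deposited (48.0%, against 48.3% of all genes) and 5 on both scales, while 1 was higher as deposited and 3 after quantile normalization. The D-type cyclin gene CYCD4-1 differed by -3.59 and the inhibitor gene KRP5, which restrains cyclin-dependent kinases, by -3.69. CYCD5-2 was higher in endosperm, at 6.75, 6.88 and 6.83, against 3.31, 3.52 and 3.60 in embryo, but only 1 of its 2 probe sets was called so and their mean difference was 0.351. CYCD4-2 lay at 2.61, 2.60 and 2.59 in endosperm and at 6.08, 5.91 and 5.93 in embryo, at least 2.76 lower.

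Of 24 tubulin, actin and actin-binding genes 16 were lower as deposited (66.7%, against 48.3% of all genes) and 7 after quantile normalization. The beta-tubulin genes TUBB1 and TUBB2 differed by -3.63 and -3.12. ADF1, an actin-depolymerising factor gene, was under the floor in endosperm and at least 2.30 lower. ACT7 was higher in endosperm, at 11.01, 11.05 and 11.03, against 9.46, 9.33 and 9.47 in embryo, but only 1 of its 2 probe sets was called so. Of 32 kinesin motor genes 14 were lower as deposited (43.8%, against 48.3% of all genes) and 8 after quantile normalization, when 2 were higher. Lower on both scales were KIN14C, KIN7F and KIN5A, with differences of -3.11, -3.10 and -2.73. Of 6 histone genes H2B.7 and H2B.10 were lower as deposited (33.3%, against 48.3% of all genes), and after quantile normalization none was lower and 1 was higher. Without endosperm replicate 1, 1 histone gene was lower as deposited.

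All 28 cytosolic ribosomal protein genes were lower as deposited, against 48.3% of all genes. After quantile normalization 14 stayed lower (50.0%, against 12.6% of all genes), and the medians on the 2 scales were -2.04 and -1.01. RPL7A-1 had 10.19, 10.02 and 10.16 in endosperm, against 12.51, 12.55 and 12.54 in embryo, a difference of -2.41 ± 0.05 (adjusted p = 2.04e-23) and -1.40 after quantile normalization. RPL5A differed by -2.41 and RPL18 by -2.90. All 9 translation factor genes were lower as deposited, but after quantile normalization 1 was (11.1%, against 12.6% of all genes). This was the helicase gene eIF-4A-1, with -1.71 as deposited and -1.23 then. The other factors named by the same criterion, eIF-4A-3 and eIF-4E-1, differed by -1.93 and -1.60 as deposited.

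Of 16 proteasome genes 15 were lower as deposited (93.8%, against 48.3% of all genes) and 2 after quantile normalization (12.5%, against 12.6%). These 2 were the lid subunit gene RPN7 and the ATPase gene RPT1A, with -2.60 and -2.44 as deposited. The ubiquitin receptor gene RAD23 differed by -2.18 as deposited and was not called after quantile normalization. Of 34 genes of folding and glycosylation in the endoplasmic reticulum 25 were lower as deposited (73.5%, against 48.3% of all genes). On both scales 4 were lower (11.8%, against 12.6% of all genes), among them the oligosaccharyltransferase genes OST4B and OST3 (-2.73 and -2.25) and the disulphide isomerase gene PDIL1-5 (-2.60). Of 14 splicing and RNA export genes 10 were lower as deposited (71.4%, against 48.3% of all genes). After quantile normalization none was lower and 2 were higher (14.3%, against 11.4% of all genes). MAGO1, PRP19 and RSZ23 differed by -2.18, -1.97 and -1.90 as deposited.

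Sucrose cleavage differed by isoform. CIN1 (NCBI Gene 4329561), a cell wall invertase, had 3.57, 3.04 and 3.98 in endosperm, against 8.96, 8.79 and 8.34 in embryo, a difference of -5.17 ± 0.27 (adjusted p = 3.02e-15). The sucrose synthase gene SUS1 had 7.79, 7.53 and 7.89 in endosperm and 12.32, 12.39 and 11.96 in embryo, and SUS3 differed by -3.06. SUS4 was higher in endosperm instead, at 10.49, 10.87 and 10.44, against 8.40, 8.08 and 8.57 in embryo, a difference of 2.25 ± 0.26 (adjusted p = 1.56e-08). Of 31 genes of sucrose breakdown and fermentation 15 were lower as deposited (48.4%, against 48.3% of all genes), 7 of them on both scales, and SUS4 was the only one called higher on the deposited scale.

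Of 30 genes of the tricarboxylic acid cycle and respiration 18 were lower as deposited (60.0%, against 48.3% of all genes), and after quantile normalization 2 were lower and 4 higher. The lower ones were RISP, which the annotation also names petC after the Rieske protein of chloroplasts, and VDAC1, a mitochondrial outer membrane channel gene, with -2.77 and -2.30 as deposited. VDAC3 differed by -2.18 as deposited and was not called afterwards. The alternative oxidase gene AOX1a, whose product bypasses part of the respiratory chain, was higher in endosperm, with a mean of 8.00 ± 0.07, against 6.05 ± 0.04 in embryo (SD, n = 3 each), a difference of 1.95 ± 0.19 (adjusted p = 7.53e-10).

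Of 58 auxin response and transport genes 31 were lower as deposited (53.4%, against 48.3% of all genes) and 19 after quantile normalization (32.8%, against 12.6%), while 4 were higher as deposited and 7 after quantile normalization. IAA31 and IAA30, of the Aux/IAA repressor family, had differences of -5.47 ± 0.29 and -5.44 ± 0.31. IAA12 was under the floor in endosperm, at 2.65, 2.65 and 2.59, against 7.15, 6.71 and 6.29 in embryo. IAA9 was higher in endosperm, with 7.66, 7.50 and 7.37, against 5.68, 5.44 and 6.09 in embryo. For jasmonate and oxylipin genes 20 of 38 were lower as deposited (52.6%, against 48.3% of all genes) and 10 on both scales, and 5 were higher after quantile normalization. TIFY10b, a JAZ repressor gene, had 8.28, 7.46 and 7.92 in endosperm and 11.79, 11.73 and 11.20 in embryo, and TIFY5 was higher by 2.61. The lipoxygenase genes LOX1.1 and CM-LOX2 were at least 3.02 and 2.81 lower by their brightest probe sets. Only 1 of the 3 probe sets of CM-LOX2 was called so, and their mean difference was -1.181.

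Abscisic acid and gibberellin balance each other in the control of dormancy and germination. Of 23 abscisic acid genes 13 were lower as deposited (56.5%, against 48.3% of all genes), whereas 2 were lower and 5 higher after quantile normalization. The kinase genes SAPK7 and SAPK1, which the list counts among abscisic acid genes, were lower on both scales, by -2.75 and -2.46 as deposited. The bZIP factor gene TRAB1 had 7.56, 7.67 and 7.65 in endosperm and 9.68, 9.57 and 9.61 in embryo, a call that was lost after quantile normalization, when the difference was -0.79. SAPK3 was higher on both scales, with 6.94, 7.19 and 6.82 in endosperm and 5.62, 5.41 and 6.05 in embryo. Of 15 gibberellin genes 5 were lower as deposited (33.3%, against 48.3% of all genes) and none afterwards. The receptor gene gid1, the kaurene oxidase family gene CYP701A19 and the DELLA-like gene SLRL1 differed by -1.76, -1.64 and -1.59 as deposited. GAMYB, the MYB factor that switches on alpha-amylase genes in aleurone, had 10.45, 10.14 and 10.54 in endosperm, against 9.68, 9.08 and 9.20 in embryo. Its difference of 1.06 ± 0.19 lay just past the threshold and lost its call when endosperm replicate 3, embryo replicate 4 or embryo replicate 5 was left out, when it was 0.976, 0.936 and 0.996, and with harvest day or the replicate number in the fit, when it was 0.791 and 0.780.

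Of 28 cytokinin genes 12 were lower as deposited (42.9%, against 48.3% of all genes), and after quantile normalization 3 were lower and 4 higher, with the oxidase gene CKX11 at -2.99, the activating enzyme gene LOGL10 at least 2.32 lower and the phosphotransfer gene AHP1 at -2.19 as deposited but -0.96 and not called after quantile normalization. Of 11 ethylene genes 4 were lower as deposited (36.4%, against 48.3% of all genes) and 1 on both scales, the receptor gene ETR4, which was at least 2.63 lower. The receptor genes ETR2 and ERS2 had differences of -2.05 and -1.82 as deposited and of -0.78 and -0.93 after quantile normalization.

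Of 20 genes of small heat shock proteins and HSP101, chaperones of the maturing and stressed seed, 4 were higher and 2 lower as deposited. After quantile normalization 12 were higher and 1 lower, and the medians on the 2 scales were 0.38 and 1.54. The higher genes were 20.0% of the list as deposited, against 4.07% of all genes, and 60.0% after quantile normalization, against 11.4%. HSP16.0 had 6.37, 6.84 and 5.86 in endosperm, against 3.81, 3.72 and 5.05 in embryo, a difference of 2.16 ± 0.31 (adjusted p = 7.82e-07). HSP18.1 had 10.50, 10.89 and 10.10 in endosperm and 8.19, 8.18 and 10.03 in embryo, and HSP21.9 had 8.80, 8.88 and 7.87 in endosperm and 6.65, 6.58 and 7.88 in embryo. Embryo replicate 5 was the highest of its group for all 3 of these genes, and for HSP21.9 it overlapped the endosperm arrays. Only 1 of the 2 probe sets of HSP21.9 was called higher, and their mean difference was 0.402. The number called higher as deposited went to 2 without embryo replicate 1, without embryo replicate 4 or without endosperm replicate 2. HSP18.8 was lower in endosperm, by -2.57 as deposited and -1.32 after quantile normalization.

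Of 20 heat shock factor genes 4 were lower (20.0%, against 48.3% of all genes) and 1 higher as deposited. After quantile normalization 1 was lower and 10 higher (50.0%, against 11.4% of all genes). Without endosperm replicate 3 the count higher as deposited was 2. HSFB4B had 3.61, 3.88 and 3.78 in endosperm and 8.24, 8.61 and 8.41 in embryo, lower on both scales. HSFA4D was higher on both, by 1.52, and at least 0.86 above the embryo floor. HSFA1 and HSFC1B differed by -1.89 and -1.50 as deposited and were not called afterwards. Of 21 antioxidant genes 9 were lower as deposited (42.9%, against 48.3% of all genes) and 2 were higher after quantile normalization. The one lower on both scales was the ascorbate peroxidase gene APX1, with 8.49, 8.20 and 8.62 in endosperm and 11.59, 11.46 and 11.36 in embryo. MDHAR5 and APX6 had -1.47 and -1.40 as deposited. Of 9 LEA and dehydrin genes Dip1 alone was called as deposited, at -2.14, and it was not called after quantile normalization. Only 1 of the 3 probe sets of Dip1 was called so, and their mean difference was -0.674.

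Of 14 chitinase-family genes 5 were lower as deposited (35.7%, against 48.3% of all genes), and after quantile normalization 4 were lower and 4 higher. Cht6 differed by -2.91, and Chib3H-a, which the annotation also names as the xylanase inhibitor XIP-I, had 6.73, 6.17 and 7.07 in endosperm and 9.67, 9.46 and 8.73 in embryo. A gene listed simply as chitinase (NCBI Gene 4351188) differed by -2.75. CH16 was higher in endosperm, with 12.80, 12.48 and 13.02, against 10.82, 10.37 and 10.18 in embryo. The count of higher genes in this list was 2 without embryo replicate 1 and 3 without endosperm replicate 2. Among 14 protease inhibitors and seed proteases 6 were lower and 2 higher as deposited (42.9% lower, against 48.3% of all genes), and 2 were lower and 3 higher after quantile normalization. The Bowman-Birk trypsin inhibitor gene RBTI had 11.02, 10.79 and 10.81 in endosperm and 13.97, 13.92 and 13.90 in embryo, the aspartic protease gene AP25 was at least 3.05 lower, and the cystatin gene OC-I differed by -1.62 as deposited and -0.47 after quantile normalization.

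The diterpenoid phytoalexin genes were uneven across the endosperm arrays. CPS2, a cyclase at the start of phytocassane synthesis, had 4.82, 4.05 and 7.44 in endosperm, against 2.51, 2.51 and 2.53 in embryo. KSL7 had 4.18, 3.10 and 5.83 in endosperm and 3.72, 3.05 and 3.30 in embryo, and CYP71Z7 had 3.57, 2.95 and 4.88 in endosperm and 5.71, 5.62 and 5.09 in embryo. Endosperm replicate 3 was the highest of its group for all 3 genes. The summed level of the 15 genes ran over 7.23 to 9.97 in endosperm and 8.04 to 9.11 in embryo. Of the list 2 were higher (13.3%, against 4.07% of all genes) and 1 lower as deposited, and after quantile normalization CPS2 remained called. Without endosperm replicate 3 the counts were 1 higher and 3 lower, and the count of higher genes was also 1 without endosperm replicate 1, embryo replicate 4 or embryo replicate 5.

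Of 25 phytate and phosphate genes 3 were higher (12.0%, against 4.07% of all genes) and 2 lower as deposited. After quantile normalization 9 were higher (36.0%, against 11.4% of all genes) and 1 lower. The inositol phosphate kinase genes ITPK4 and ITPK3 had differences of 2.66 ± 0.22 and 2.38 ± 0.24, the phosphate response gene SPX3 was at least 2.15 higher, and IPK2 was lower, by -2.27 as deposited and -1.02 after quantile normalization. Of 18 sugar transporter genes 6 were lower as deposited (33.3%, against 48.3% of all genes), 2 of them on both scales, and 2 were higher as deposited and 4 after quantile normalization. SWEET1a had 6.25, 6.15 and 6.07 in endosperm and 9.92, 9.88 and 9.94 in embryo, opposite to its relative SWEET1b. SWEET2a differed by -2.12 as deposited, and SWEET11, at least 0.98 lower, was at the floor in endosperm.

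Among 24 potassium transporter genes 8 were lower as deposited (33.3%, against 48.3% of all genes) and 3 on both scales (HAK9, HAK23 and HAK25, with -3.66, -2.68 and -2.42). As deposited 2 were higher and after quantile normalization 6, among which HAK12 differed by 2.12 as deposited. Of 19 ammonium and nitrogen genes 5 were lower as deposited (26.3%, against 48.3% of all genes), and after quantile normalization none was lower and 4 were higher. As deposited 1 was higher, and 2 were without embryo replicate 1 or endosperm replicate 1. GDH, NIA1 and AMT3-2 had -2.11, -2.05 and -1.78 as deposited. The glutamine synthetase gene GLN1-3 was higher on both scales, with 10.55, 10.82 and 10.54 in endosperm and 9.51, 9.18 and 9.55 in embryo.

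Of 17 chlorophyll and photosynthesis genes 9 were lower as deposited (52.9%, against 48.3% of all genes) and 6 on both scales. The plastocyanin gene PETE had 3.33, 3.33 and 3.31 in endosperm, against 7.87, 8.00 and 7.38 in embryo, and the geranylgeranyl reductase gene CHLP and the photosystem I gene PSAG differed by -3.86 and -2.42. PSAH was higher in endosperm, at 4.91, 4.56 and 4.89, against 2.68 on each embryo array. Of 17 phenylpropanoid and flavonoid genes 7 were lower as deposited (41.2%, against 48.3% of all genes), and 4 were higher after quantile normalization. Lower on both scales were CHS1 at -4.32, CHI at -3.15 and 4CL2 at -3.07. Of 27 beta-glucosidase genes 7 were lower as deposited (25.9%, against 48.3% of all genes), and after quantile normalization 4 were lower and 4 higher. The count higher as deposited was 1, and 2 without endosperm replicate 1, endosperm replicate 2 or embryo replicate 4. BGLU8, BGLU6 and BGLU7 were at -3.13, -2.96 and -2.77, and BGLU22 was higher by 1.98. Of 77 calcium signalling genes 31 were lower and 6 higher as deposited (40.3% lower, against 48.3% of all genes), whereas 9 were lower and 17 higher after quantile normalization. CPK3, CIPK25 and CPK5 differed by -3.38, -2.66 and -2.55.

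**Figure D3:**
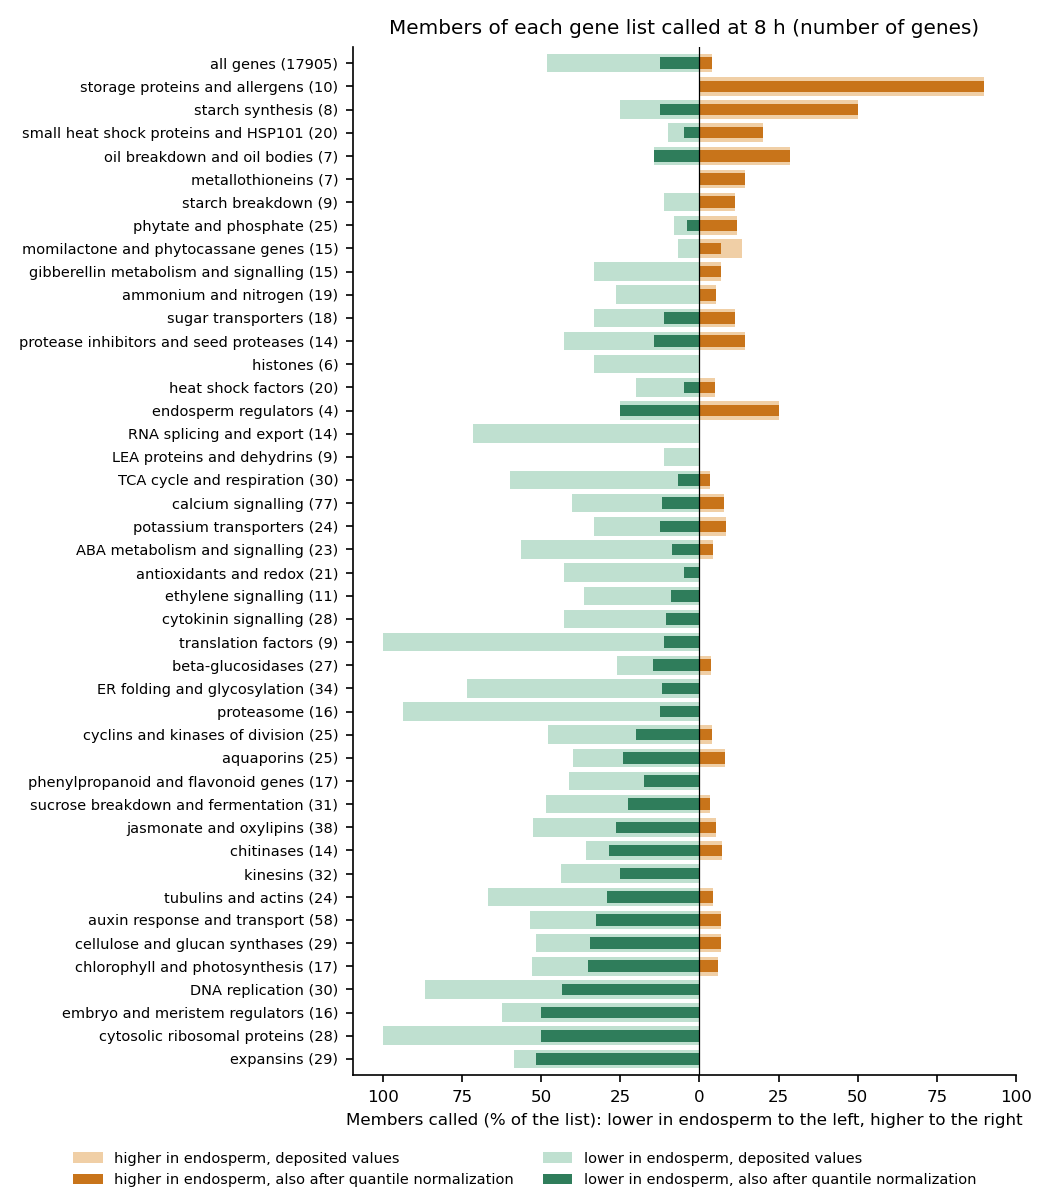
Share of each gene list called lower (left) or higher (right) in endosperm at 8 h, in percent of the list's genes; pale bars are calls in the deposited values and dark bars those called also after quantile normalization, and the list's size is in brackets. Among all 17905 genes 48.3% were lower as deposited and 12.6% on both scales; the storage proteins reach 90.0% higher on both scales, and the expansins 51.7% lower.

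The tissue difference at 8 h was next set against those at 0, 4 and 12 h, each measured on 6 other arrays. Of the 728 genes higher in endosperm at 8 h, 459 were also called higher at 0 h, 63.0% of the 8 h genes and 59.8% of the 767 at 0 h. Of the 8656 lower genes 6659 were lower at 0 h as well, 76.9% of those at 8 h and 79.9% of the 8333 at 0 h. Over all 17905 genes, 4.07% were called higher and 48.3% lower at 8 h. At 4 h 467 of the higher and 7514 of the lower genes were shared, and at 12 h 618 and 7676. At 12 h the shared genes were 84.9% of the higher and 88.7% of the lower genes of 8 h. These overlaps were counted on the deposited scale only. On it the median gene was lower in endosperm at each time, by -0.883 at 0 h, -0.952 at 4 h and -0.925 at 12 h. The part of this shift in the shared lower genes was not tested.

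The change of the tissue difference itself was tested as an interaction in the same fit, where an offset common to both times cancels. Between 8 h and 0 h 2966 of 17905 genes were called (16.6%), 1171 with a difference higher at 8 h (6.54%) and 1795 with one lower (10.0%). Over probe sets 4871 were called (8.52%), 2101 higher (3.67%) and 2770 lower (4.84%). Between 8 h and 4 h 945 genes were called (5.28%), 319 higher (1.78%) and 626 lower (3.5%). Between 8 h and 12 h 520 were called (2.90%), 377 higher (2.11%) and 143 lower (0.799%).

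Several differences in favour of embryo were far larger at 8 h than at 0 h. EXPB3 differed by -4.97 at 8 h and -0.33 at 0 h, a change of -4.64 ± 0.36 (adjusted p = 5.13e-10). The endosperm means lay under the floor, at 2.77, 2.79 and 2.95 at 0, 4 and 8 h, while embryo was at 3.09, 4.38 and 7.91. MCM2 was at 2.56, 2.57 and 3.58 in endosperm and 2.91, 3.08 and 7.56 in embryo at the same times, a change of -3.64. CIN1 changed by -4.78, with means of 2.52, 2.70 and 3.53 in endosperm and 2.91, 7.07 and 8.70 in embryo. At 0 h EXPB3, MCM2 and CIN1 were each under the 8 h floors in both tissues (3.21 in endosperm, 3.43 in embryo). Their tissue differences at 0 h therefore cannot be read. Of the 29 expansin genes 11 had a lower difference at 8 h than at 0 h, as did 10 of 30 DNA replication genes, 12 of 29 cellulose and glucan synthase genes, 15 of 38 jasmonate genes and 7 of 14 chitinase-family genes, beside the 10.0% of all genes.

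Several genes called for a lower difference at 8 h had been higher in endosperm at 0 h. Chib3H-h (NCBI Gene 4351187), a class III chitinase homologue, had a difference of 0.58 at 8 h, against 6.34 at 0 h, a change of -5.75 ± 0.40 (adjusted p = 8.36e-11). It was not called at 8 h as deposited but was called higher in endosperm after quantile normalization, at 1.76, and on the shared harvest day its difference was 0.148. Its endosperm means were 9.69, 9.34 and 9.54 at 0, 4 and 8 h and its embryo means 3.36, 6.71 and 8.96. The sucrose synthase gene SUS2 differed by -2.85 at 8 h and 2.27 at 0 h, and the alcohol dehydrogenase gene Adh2, of fermentation, by -2.24 at 8 h and 2.42 at 0 h. XRT5, annotated also as the xyloglucan transglucosylase XTH8, differed by -1.21 at 8 h and 3.60 at 0 h, but after quantile normalization its 8 h difference was 0.01. In each of the 4 genes the embryo means moved by more than the endosperm means did.

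**Figure D4:**
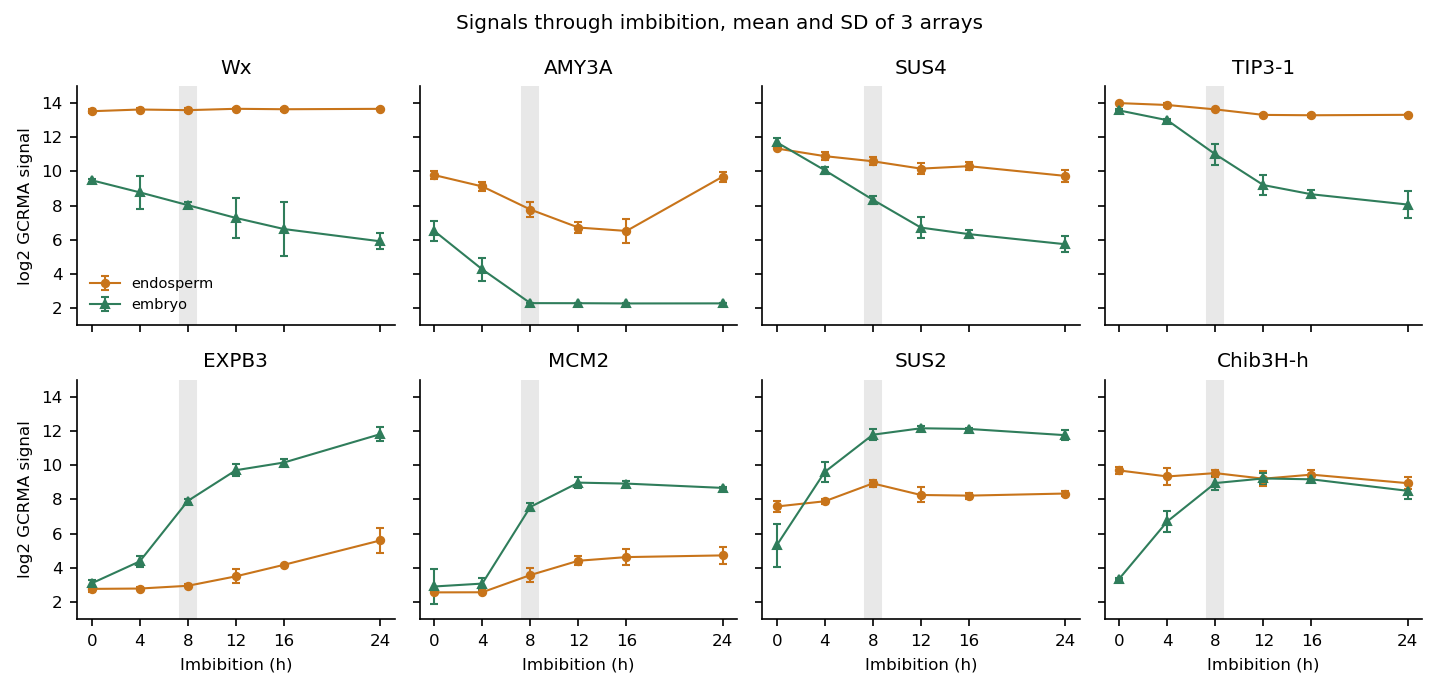
Mean log2 GCRMA signal of 8 genes against hours of imbibition (circles, endosperm; triangles, embryo; bars, SD of 3 arrays; grey band, 8 h). The endosperm mean of EXPB3 is 2.95 at 8 h and 2.77 at 0 h while the embryo mean is 7.91 at 8 h and 3.09 at 0 h, and the endosperm mean of SUS4 is 10.60 at 8 h and 11.35 at 0 h while the embryo mean is 8.35 at 8 h and 11.71 at 0 h.

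For SUS4, ITPK4, TIP3-1 and Wx the difference was more positive at 8 h than at 0 h, and embryo means were lower at the later times. For SUS4 endosperm means were 11.35, 10.90 and 10.60 at 0, 4 and 8 h and embryo means 11.71, 10.07 and 8.35, so that a difference of 2.25 at 8 h stood against one of -0.36 at 0 h, a change of 2.61 ± 0.36 (adjusted p = 6.04e-06). ITPK4, at -0.068 at 0 h, changed by 2.72, and its endosperm mean was also lower at 8 h (6.475, against 7.933 at 0 h). TIP3-1 changed by 2.20. Wx stayed at 13.53, 13.62 and 13.59 in endosperm and had 9.49, 8.78 and 8.03 in embryo, and its change of 1.52 was not called (adjusted p = 0.199). Of the 10 storage protein and allergen genes 2 were called for a higher difference at 8 h. For small heat shock proteins the number was 8 of 20, for heat shock factors 8 of 20, for abscisic acid genes 8 of 23 and for phytate and phosphate genes 7 of 25, beside 6.54% of all genes.

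The named genes with the largest positive change had been brighter in embryo at 0 h. The mitochondrial gene cob differed by -0.49 at 8 h (0.10 after quantile normalization) and -3.45 at 0 h, with embryo means of 3.71 at 8 h and 7.55 at 0 h. PP2C30, a protein phosphatase 2C gene, differed by 0.36 at 8 h and -2.60 at 0 h, and was called higher at 8 h after quantile normalization, at 1.37. PHT1-2, a phosphate transporter gene, differed by -0.21 at 8 h, when both tissues were under the floor, and -2.98 at 0 h. The alpha-amylase gene AMY3E differed by -0.85 at 8 h and -3.61 at 0 h, its 8 h difference turning to 0.33 after quantile normalization, and RFS, annotated by that symbol alone, by 1.25 at 8 h and -1.50 at 0 h. AMY3E was the one of these whose endosperm mean was higher at 8 h than at 0 h (8.99 and 7.15), and RFS was the one called higher in endosperm at 8 h as deposited.

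**Figure D5:**
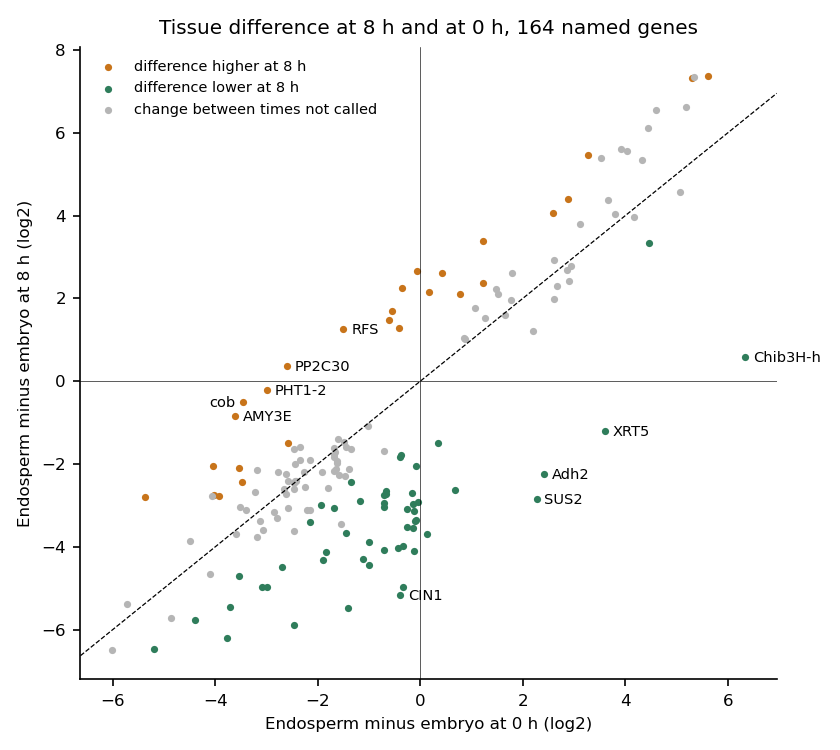
Difference between endosperm and embryo at 8 h (y axis) and at 0 h (x axis), in log2 units, for the 164 named genes. Genes on the dashed line have the same difference at both times; orange and green mark those whose difference was called higher or lower at 8 h, and the 10 with the largest change are labelled.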

How the data were processed

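Total RNA of rice endosperm and embryo was amplified to biotin-labelled cRNA and hybridised to Affymetrix rice arrays, per the labels' protocols. The values are the deposited log2 signals, made by the authors with GCRMA, per the submitters' processing notes; whether both tissues were scaled together is not stated there. No further scaling was applied for the main result. Of the probe sets, 123 hybridisation and RNA controls and 64 reporters were left out, and 57194 were tested. Gene names come from the platform annotation, updated through NCBI Gene identifiers of the RefSeq table for assembly ASM3414082v1, used for names only: 22436 probe sets have 1 gene, 95 several and 34663 none listed. Each of 17905 genes was taken as its probe set with the highest mean over all arrays, and 2446 have a name.

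One mean for each of 12 groups was fitted over 36 arrays with limma 3.58.1 in R 4.3.3 (lmFit, eBayes), with Benjamini-Hochberg adjustment over all probe sets. After quantile normalization of the 6 arrays the fit held those 6 arrays alone, so its estimate of spread also differed. KSL7 lost its call there although its difference was larger, 1.67 ± 0.85, against 1.01 ± 0.44 as deposited (SE). The parts of scale and fit in lost calls were not tested. A call needed an adjusted p below 0.05 and a log2 difference of at least 1. The change of the tissue difference between times was a contrast of the same fit. The fit was also run on simulated data as a check, whose outcome is not given here. Counting and drawing used Python 3.11.15 with numpy 2.4.6, pandas 2.3.3 and matplotlib 3.10.9. Array number, 3 per group, limits the precision.

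The genes described are the 12 in each direction with the largest differences called on both scales with no overlap between arrays, from each of 43 lists up to 3 called members in the commoner direction and 1 in the rarer, and the 5 in each direction with the largest change from 0 h. The comparison and the gene lists were chosen with earlier results of these data known. Alternatives covered the scaling of arrays, the arrays fitted, moderation, a filter on dim probe sets, the minimum difference, the replicate number and the harvest day as factors, the probe set of a gene, and leaving out each array. At 8 h replicate 1 of endosperm and of embryo share a harvest day, endosperm replicates 2 and 3 share another, and embryo replicates 4 and 5 each have their own.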

Additional observations from a re-analysis of the deposited data

Results flagged for a closer look

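The tissue difference at 8 h differed from that at 0 h for 4871 of 57194 probe sets by the interaction test in limma. The named genes with the most negative change, the difference at 8 h minus that at 0 h on the log2 scale, were Chib3H-h at -5.75, SUS2 at -5.12, XRT5 at -4.81, CIN1 at -4.78 and Adh2 at -4.66. Those with the most positive change were cob at 2.96, PP2C30 at 2.96, PHT1-2 at 2.78, AMY3E at 2.76 and RFS at 2.75. These 10 genes were picked for the size of this change.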

How the results depend on the processing

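Of probe sets, 14733 were called at 8 h as deposited, 1268 higher and 13465 lower in endosperm. Quantile normalization of the 6 arrays gave 7039, 3353 and 3686, quantile normalization over 36 arrays gave 7015, 3352 and 3663, and centring on the 75th percentile gave 38798, 35996 and 2802. That centring moved the median probe set difference to 1.21, against -0.04 as deposited. Centring on the hybridisation spike-ins gave 14112, 1379 and 12733, and harvest day as a factor gave 14906, 1228 and 13678. With no minimum difference the counts were 38992, 15984 and 23008. Leaving out each array gave 14638 to 14839 called, 1224 to 1295 higher and 13368 to 13544 lower. For the change from 0 h, leaving out each array gave 4554 to 5116 called, 1883 to 2324 higher and 2643 to 2888 lower. As deposited with all arrays this change had 4871 called, 2101 higher and 2770 lower. Quantile normalization over 36 arrays gave 3989, 1936 and 2053 for it, and 75th percentile centring gave 5134, 2558 and 2576. On both of these scales the higher and lower counts were closer together. Fitting the arrays of the 4 groups alone gave 4418, 1900 and 2518. The replicate block, which rests on number 1 alone since the tissues share no other number, gave 14790 called at 8 h, 1245 higher and 13545 lower, and 4931 for the change from 0 h, 2128 higher and 2803 lower. The labels do not say that these numbers pair samples.

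Of the 164 genes named, 5 changed sign with quantile normalization of the 6 arrays or 75th percentile centring. H2B.10, at -1.07 as deposited, was at 0.176 with 75th percentile centring, 0.062 with quantile normalization of the 6 arrays and 0.056 with that over 36 arrays. XRT5, at -1.21, was at 0.041, 0.010 and 0.009 in the same order. PHT1-2, at -0.21 and not called, was at 1.04 with 75th percentile centring. Neither cob nor AMY3E was called as deposited, at -0.49 and -0.85, and they were at 0.10 and 0.33 with quantile normalization of the 6 arrays. Of the 159 genes called as deposited, quantile normalization of the 6 arrays ended 31 calls and 75th percentile centring 33. The mean of a gene's probe sets moved 30 of the 164 differences by more than the replicate SD. Replicate 1 of each tissue, from 1 harvest day, moved 46, with the sign kept in 163 and PP2C30 at -0.06. The cause was not tested. Signals under the floor limit what can be read for 65.4% of probe sets in endosperm and 62.4% in embryo.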
